A study of Mus musculus with 4 samples.

Results

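Molecular chaperones fold new proteins, keep unfolded ones from aggregating and hand damaged ones on for refolding or degradation. In the cytosol, prefoldin passes new chains to the ring-shaped chaperonin TRiC/CCT, which folds actin and tubulin, and Hsp70 works with J-domain proteins and nucleotide exchange factors before clients move on to Hsp90 and its co-chaperones. Mitochondria have their own Hsp70, Hsp60 and Hsp10, and neurons use Hsp70 with a J-domain protein at the synaptic vesicle. The 38 genes described here encode such cytosolic and mitochondrial chaperones, together with Bag3, a partner of Hsp70 and small heat-shock proteins, and Hsf1, the transcription factor of the heat-shock response. They were chosen by gene symbol from a list of chaperone families, with earlier results of these data known. No cut on their values was applied, and all 38 were found among the 22760 genes of the files. All 38 also passed the filter on low values and stood among the 12418 genes tested.

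The IP group consisted of 2 libraries of immunoprecipitated RNA, made by translating ribosome affinity purification (TRAP), which recovers RNA on tagged ribosomes. The input group consisted of 2 libraries of total RNA of the same tissue. Both groups came from the amygdala, taken from both sides of the brain, of mice with the genotype NpyCre/+;TRAPlox/lox, so that IP and input alike carried the lox allele and a Cre driven by Npy, which encodes neuropeptide Y. RNA of 3 mice was pooled for each library, 200 ng was used, and each IP had an input of its own. No Cre-negative tissue or mock precipitation was analysed here, and the age and sex of the mice are not stated in the labels used here. Any cell in which Npy-Cre had acted, at whatever time, could carry the tag.

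Levels are given as FPKM, sequenced fragments scaled by gene length and by library size. The files give no read totals, and FPKM summed to 423985 and 419349 in the IP libraries, against 334759 and 335119 in the input libraries. The markers of the labelled neurons were the ones that rose. Npy was at 1240.4 and 1167.3 FPKM in IP, against 105.4 and 99.2 FPKM in input. All 6 markers of GABAergic and Npy/Sst neurons rose, with summed levels of 6775.7 and 6974.0 FPKM in IP, against 680.5 and 652.4 FPKM in input. Of 6 glutamatergic markers 5 fell, and the sums were 232.1 and 151.6 FPKM in IP and 381.7 and 393.9 FPKM in input. Astrocyte markers fell in 5 of 6 cases, oligodendrocyte markers in 6 of 6 and microglial markers in 6 of 6. The astrocyte sums were 60.7 and 84.1 FPKM in IP, against 208.7 and 236.3 FPKM in input. The oligodendrocyte sums were 82.9 and 93.9 FPKM in IP, against 401.3 and 370.2 FPKM in input, and the microglial sums were 2.87 and 2.65 FPKM in IP, against 41.6 and 38.3 FPKM in input. Of 8 immediate early genes, which respond to handling of the animal or tissue, 5 fell and 0 rose as deposited, 1 fell without input replicate 1, and 6 fell and 1 rose with the replicate number as a block. The sums were 159.6 and 81.9 FPKM in IP and 208.4 and 136.2 FPKM in input. The part of this cell mixture in the chaperone results was not tested, and in these bulk samples fewer cells of a type and less RNA per cell cannot be told apart.

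The comparison of IP with input asked how the chaperone transcripts on ribosomes tagged through Npy-Cre differed from those of the whole amygdala. Most chaperone genes were moderately higher in IP. Of the 38 genes 32 rose, 2 fell (Dnajb5 and Hspb1) and 4 did not pass the test (Tcp1, Hsph1, Hspb8 and Bag3), by limma on log2(FPKM + 1) with an adjusted p under 0.05. Of all genes tested 37.0% were called higher and 33.9% lower, so the members' 84.2% stood above the background. Their median log2 change, IP minus input, was 0.43, beside 0.025 for all genes tested. Changes ran between -1.665 for Hspb1 and 1.093 for Pfdn4. Both IP values lay above both input values in 32 members, against 45.0% of all genes tested, and below them in 2, against 41.4% of all genes. In the other 4 the groups overlapped.

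The count of rises rested on how the libraries were scaled. When every library was brought to the same sum of 1000000, 16 members were higher and 5 lower (Tcp1, Hsph1, Dnajb5, Hspb1 and Hspb8), against a background of 17.9% higher and 53.8% lower. That rescaling moved the median of all genes to -0.293 and that of the members to 0.094, so the members' median lay 0.388 above that of all genes, close to the 0.405 of the deposited values. With quantile normalization 15 members were higher and 5 lower (Tcp1, Hsp90ab1, Hsph1, Dnajb5 and Hspb1), the background was 35.3% higher and 30.2% lower, and the members' median was only 0.044 above that of all genes. Among genes that reached an FPKM of 5 in 2 or more libraries, a group to which 36 members belonged, the background was 46.7% higher and 27.0% lower. The 13 members that were higher as deposited, after rescaling, with median-of-ratios size factors, with quantile normalization and after a correction for transcript length were Cct3, Cct5, Cct7, Cct8, Pfdn1, Pfdn4, Stip1, Ahsa1, Cdc37, Fkbp4, Hspa9, Hspd1 and Hspe1. Dnajb5 and Hspb1 were lower in all of these.

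**Figure D1:**
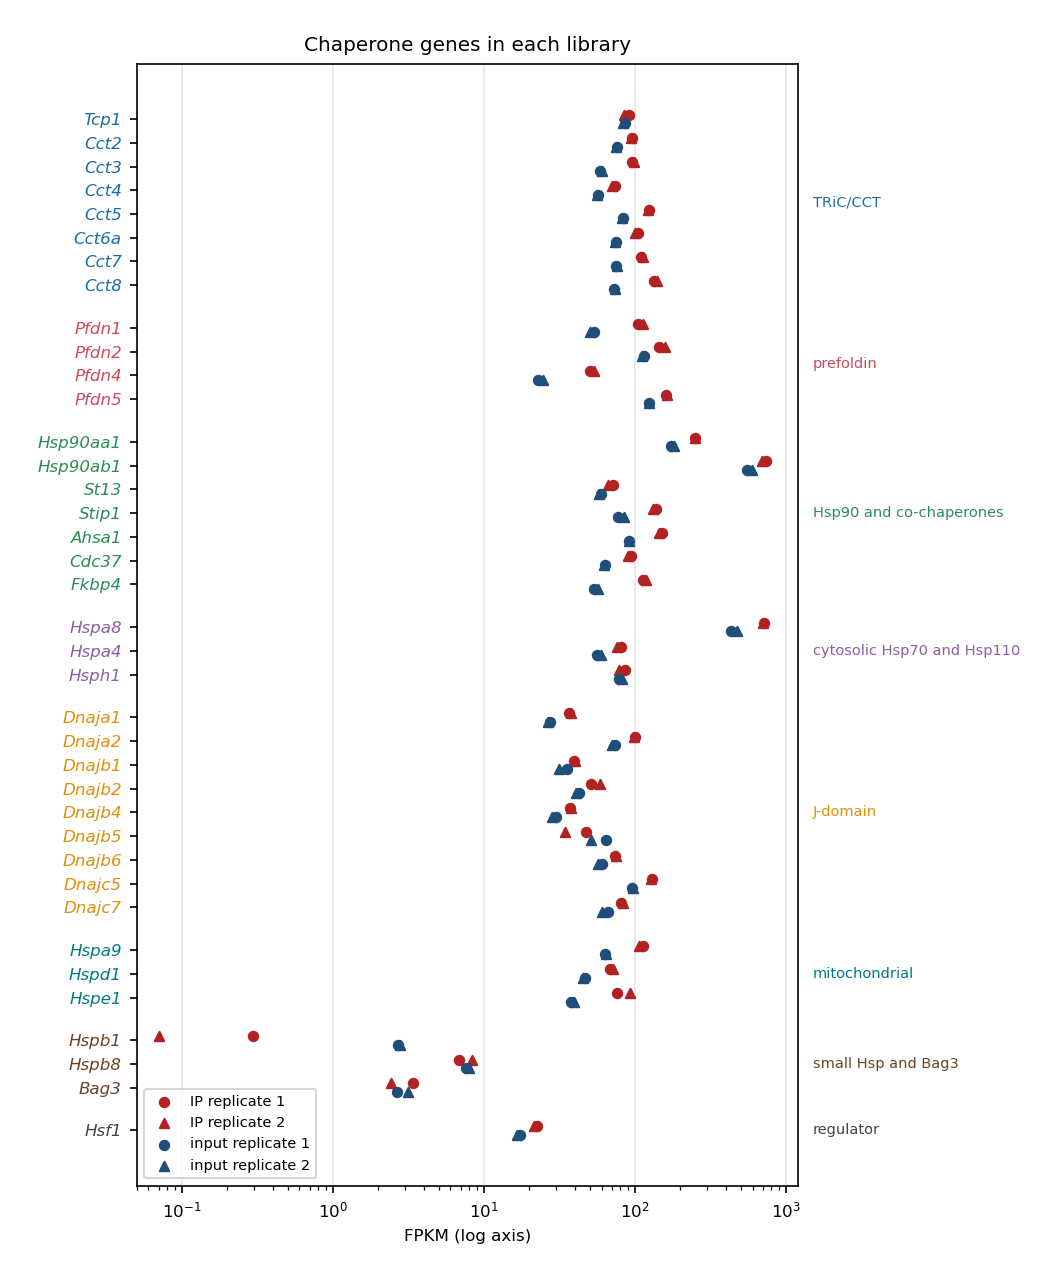
FPKM of the 38 chaperone genes in each library on a log axis, grouped by family, with IP libraries in red and input libraries in blue (circle, replicate 1; triangle, replicate 2). Hsp90ab1 and Hspa8 had the highest levels in all 4 libraries, and Hspb1 was the gene whose IP values lay furthest below its input values.

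Summed over the 38 genes, chaperone transcripts reached 4601.0 and 4550.0 FPKM in IP, against 3211.1 and 3270.8 FPKM in input, a ratio of means of 1.41. As a share of each library's summed FPKM they made up 1.09% and 1.09% in IP, against 0.959% and 0.976% in input. The share does not depend on the scale of a library, and it was higher in both IP libraries. By family, the ratio of IP to input was 1.78 for the mitochondrial chaperones, 1.52 for prefoldin, 1.47 for cytosolic Hsp70 and Hsp110, 1.42 for TRiC/CCT, 1.38 for Hsp90 and its co-chaperones, 1.24 for the J-domain genes and 0.8 for the small heat-shock genes with Bag3. The J-domain share of summed FPKM overlapped between the groups, at 0.141% and 0.141% in IP and 0.148% and 0.138% in input.

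**Figure D2:**
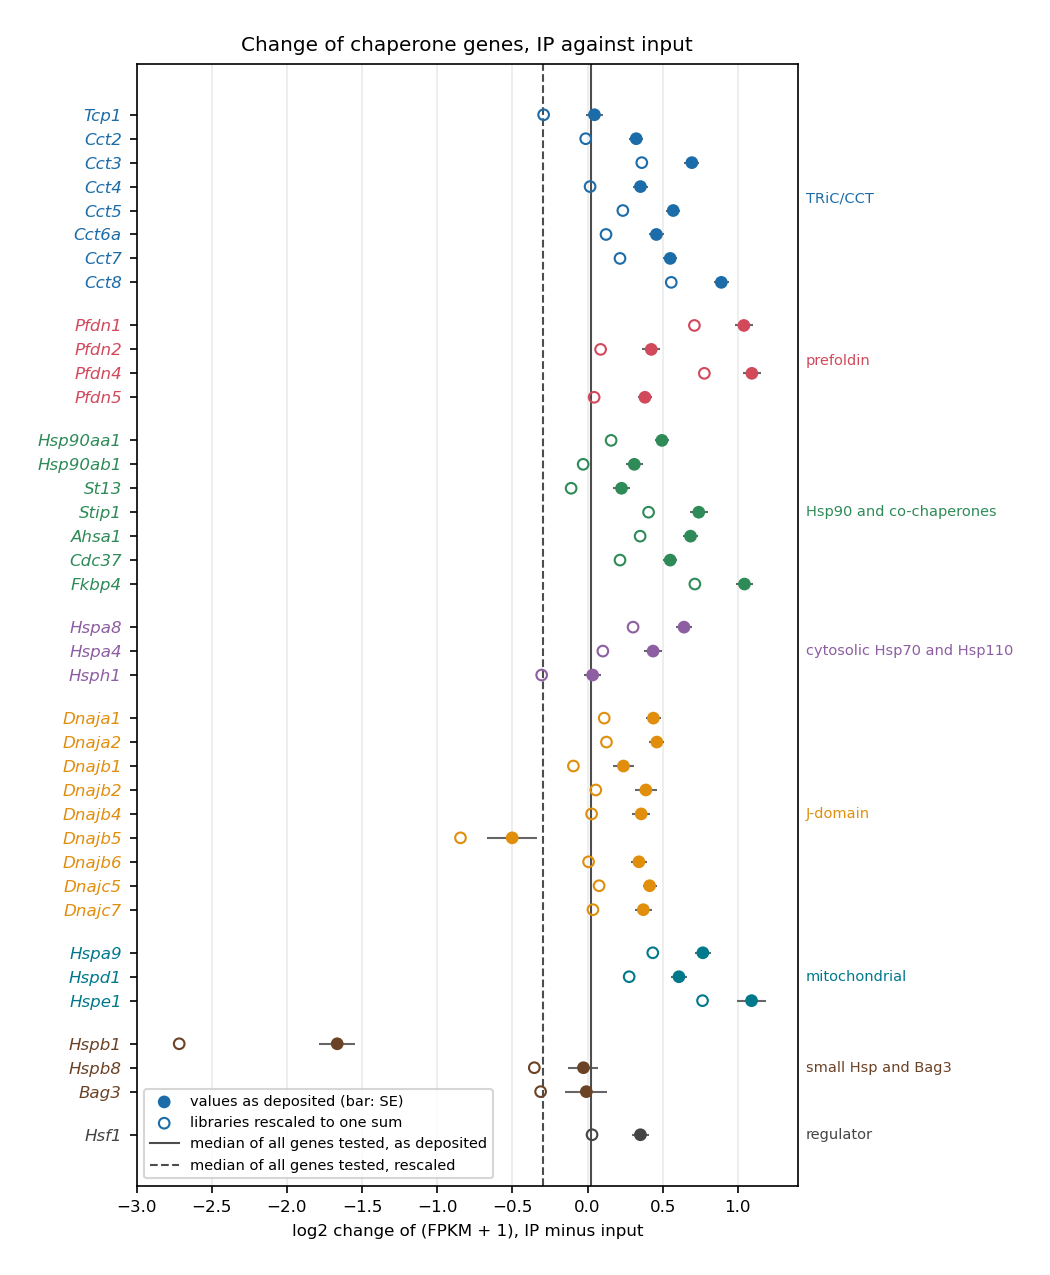
Log2 change of (FPKM + 1), IP minus input, for each chaperone gene with the values as deposited (filled circle, bar: SE) and with libraries rescaled to one sum (open circle). The solid and dashed lines are the medians of all genes tested, 0.025 as deposited and -0.293 after rescaling, and the shift between filled and open circles is alike for most genes.

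Hsf1, which binds heat-shock elements and switches on chaperone genes after heat or proteotoxic stress, was at 22.4 and 21.5 FPKM in IP, against 17.3 and 16.6 FPKM in input. Both IP values lay above both inputs, and Hsf1 rose by 0.35 (SE 0.059; limma, adjusted p = 0.00216), although it did not pass after rescaling (0.03). A heat-shock element is built of the unit GAA and its complement TTC in alternation. Promoter windows of 250 bases before to 50 bases after the gene start (RefSeq, GRCm38.p6) were found for 29 of the 38 genes. A pair of units, GAANNTTC or TTCNNGAA, occurred in 14 of these 29 genes (48.3%), against 17.0% of 27025 genes with a window and 15.1% of their 32851 windows. A run of 3 units, written GAANNTTCNNGAA or TTCNNGAANNTTC and read on both strands, occurred in 4 of the 29 (13.8%), against 0.662% of all genes and 0.603% of all windows. These 4 genes were Hsph1, Dnajb6, Hspd1 and Hspe1, and the last 2 share a single stretch, because Hspd1 and Hspe1 lie head to head and are transcribed away from each other. Any run of 3 units also holds the pair. The whole interval between Hspd1 and Hspe1 is printed because both genes read from it rose, and Dnajb6 because its run stands alone. Hspb1 is printed because it was the gene with the largest fall and holds separate pairs only. The run of Hsph1, which did not pass the test, is not printed, so the printed runs are those of genes that rose as deposited. Capitals mark the matches. A match describes the letters and shows no binding.
Hspe1-Hspd1 (chr1:55087933-55088147, plus strand): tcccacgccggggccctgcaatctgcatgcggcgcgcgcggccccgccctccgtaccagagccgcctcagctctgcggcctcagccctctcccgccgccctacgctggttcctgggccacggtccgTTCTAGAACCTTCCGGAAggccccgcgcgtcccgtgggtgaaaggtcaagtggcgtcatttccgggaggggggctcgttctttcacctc
Dnajb6 (chr5:29735648-29735897, plus strand): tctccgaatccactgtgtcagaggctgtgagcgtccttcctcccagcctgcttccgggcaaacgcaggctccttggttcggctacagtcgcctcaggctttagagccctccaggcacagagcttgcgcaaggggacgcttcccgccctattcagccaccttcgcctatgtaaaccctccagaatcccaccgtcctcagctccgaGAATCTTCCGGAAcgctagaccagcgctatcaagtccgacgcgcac
Hspb1 (chr5:135887669-135887918, plus strand): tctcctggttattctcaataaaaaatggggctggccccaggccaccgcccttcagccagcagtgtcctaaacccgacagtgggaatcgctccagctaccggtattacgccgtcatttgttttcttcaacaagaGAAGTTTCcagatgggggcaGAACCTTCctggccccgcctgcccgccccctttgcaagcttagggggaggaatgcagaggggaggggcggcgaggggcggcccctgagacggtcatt
In the interval between Hspd1 and Hspe1 the overlapping pairs begin at bases 127, 132 and 137 of the printed sequence. They form a longer alternation that holds 2 overlapping runs of 3 units. In Dnajb6 the overlapping pairs begin at bases 205 and 210 and form 1 run of 3 units. In Hspb1 the pairs begin at bases 134 and 154 and do not touch. Of the genes with a run of 3 units, Hspd1, Hspe1 and Dnajb6 rose as deposited (Dnajb6 not after rescaling) and Hsph1 did not pass. Of the 10 genes with a pair but no run of 3 units, 7 rose as deposited (Cct2, Cct5, Cct6a, Cdc37, Fkbp4, Dnaja1 and Dnajb4). Hspb1 fell, and Hspb8 and Bag3 did not pass. By comparison, 84.2% of all 38 members and 37.0% of all genes tested rose as deposited. After rescaling Cct2, Dnaja1 and Dnajb4 no longer passed, and Hspb8 was lower. In that setting 42.1% of the members and 17.9% of all genes were higher. Whether the motif goes with the changes was not tested.

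Heat-inducible genes, known targets of heat-shock factor, were described as a list of their own. It holds 11 of the 38 genes and 4 others. Of these 15, 9 rose, 2 fell (Hspb1 and Cryab) and 4 did not pass (Hspa1a, Hspa1b, Hsph1 and Bag3), with a median of 0.308, beside 37.0% higher and 33.9% lower among all genes tested. After rescaling 5 were higher and 4 lower, with a median of -0.019, beside 17.9% and 53.8% of all genes. The list's median lay 0.283 above that of all genes as deposited, 0.274 above it after rescaling and 0.11 above it with quantile normalization. The strongly inducible Hsp70 gene Hspa1a was at 5.43 and 5.66 FPKM in IP and 4.74 and 5.22 FPKM in input (log2 change 0.13), and its near-identical neighbour Hspa1b, whose reads may be split with it, was at 4.29 and 4.42 FPKM in IP and 4.67 and 4.74 FPKM in input (-0.09). Neither passed. Cryab, which encodes the small heat-shock protein alpha-B-crystallin, was at 52.8 and 53.9 FPKM in IP, against 72.7 and 64.0 FPKM in input, and fell by 0.35 on the log2 scale.

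TRiC/CCT is a double ring in which each ring holds the 8 subunits Tcp1, Cct2, Cct3, Cct4, Cct5, Cct6a, Cct7 and Cct8 once. As deposited 7 of the 8 genes rose, 0 fell and Tcp1 did not pass (median 0.504). After rescaling 5 were higher, Tcp1 was lower and Cct2 and Cct4 did not pass, and with quantile normalization 4 were higher and Tcp1 lower. Among all genes tested the shares called higher were 37.0% as deposited, 17.9% after rescaling and 35.3% with quantile normalization. The shares called lower were 33.9%, 53.8% and 30.2%. Cct8, on chromosome 16 from 87483325 to 87495869 (mm10, whole gene), had the highest mean level over the 4 libraries and the largest rise, while in input Tcp1 and Cct5, among others, were more abundant. It stood at 133.9 and 140.6 FPKM in IP, against 73.0 and 74.1 FPKM in input. The groups lay far apart, and Cct8 rose by 0.89 (SE 0.049; limma, adjusted p = 3.8e-05). The gene Usp16 overlaps it and had a listed value of 0 in each IP library, against 9.42 and 8.57 FPKM in input. The sources do not say whether counting used the strand, so reads of these genes cannot be told apart. Tcp1, which encodes the first subunit, on chromosome 17 from 12916329 to 12925067, was at 90.9 and 84.3 FPKM in IP and 86.1 and 83.4 FPKM in input. Its groups overlapped (0.05, SE 0.056; limma, adjusted p = 0.483), and its change was -0.29 after rescaling and -0.31 with quantile normalization, both past the threshold downward. Cct3, Cct5 and Cct7 rose by 0.69, 0.57 and 0.55, and Cct6a by 0.46. Cct2 and Cct4 rose by 0.32 and 0.35, and neither passed after rescaling.

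Ratios within a library do not depend on its scaling. Tcp1 stood at 0.882 and 0.819 of the mean of the 8 subunits in IP, against 1.182 and 1.152 in input. Cct8 stood at 1.298 and 1.366 of that mean in IP, against 1.002 and 1.024 in input. By these values Tcp1 was the most abundant subunit transcript in both input libraries, and Cct8 in both IP libraries. In IP replicate 1 Cct8 was at 133.9 and Cct5 at 123.5 FPKM. Usp16 overlaps Cct8, and Acat3, listed at 0 in each library, overlaps Tcp1. The sources do not say how reads of overlapping genes were divided, so these ranks may depend on it. Cct4 was the least abundant in all 4. The highest subunit exceeded the lowest 1.82 and 1.99 times in IP, against 1.51 and 1.5 times in input. With 2 libraries against 2, an exact permutation test of such a ratio cannot go below p = 0.333, and the ratios are given as a description, with no test run on them.

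Prefoldin is a jellyfish-shaped complex of 6 subunits that captures new actin and tubulin chains. Its 4 members Pfdn1, Pfdn2, Pfdn4 and Pfdn5 all rose as deposited (median 0.732). Pfdn1 and Pfdn4, 2 of them, also rose after rescaling and with quantile normalization. The shares of all genes called higher were 37.0%, 17.9% and 35.3% in the same order. Pfdn4, on chromosome 2 from 170496428 to 170519070, was at 50.4 and 53.3 FPKM in IP, against 22.9 and 24.6 FPKM in input. The IP values lay more than 2-fold above the inputs, with the largest rise of all members (1.09, SE 0.061; limma, adjusted p = 4e-05). The genes Cyp24a1 and Gm16796 overlap Pfdn4 and were listed at 0 in each library. Pfdn1 was at 104.0 and 112.1 FPKM in IP, against 53.4 and 50.6 FPKM in input, a rise of 1.04 (SE 0.059; limma, adjusted p = 4.1e-05). Pfdn5, the most abundant prefoldin transcript, was at 160.7 and 162.2 FPKM in IP, against 124.4 and 123.0 FPKM in input. It rose by 0.38 (SE 0.044; limma, adjusted p = 0.00045) but did not pass after rescaling (0.04), with quantile normalization (-0.07) or after the correction for transcript length. Pfdn2 rose by 0.42 and did not pass after rescaling (0.09). The remaining subunits, Vbp1 and Pfdn6, which the files list under the older symbol H2-Ke2 for the second, rose by 0.62 and 0.79.

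Relative to the mean of the 6 subunits, Pfdn4 stood at 0.462 and 0.452 in IP, against 0.313 and 0.342 in input, and Pfdn1 at 0.954 and 0.952 in IP, against 0.731 and 0.703 in input. Pfdn5 stood at 1.474 and 1.378 in IP, against 1.701 and 1.709 in input. The subunit transcripts were therefore closer to one another in IP, where Pfdn5 exceeded Pfdn4 3.19 and 3.05 times, against 5.43 and 4.99 times in input. For TRiC/CCT the subunits were further apart in IP.

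**Figure D3:**
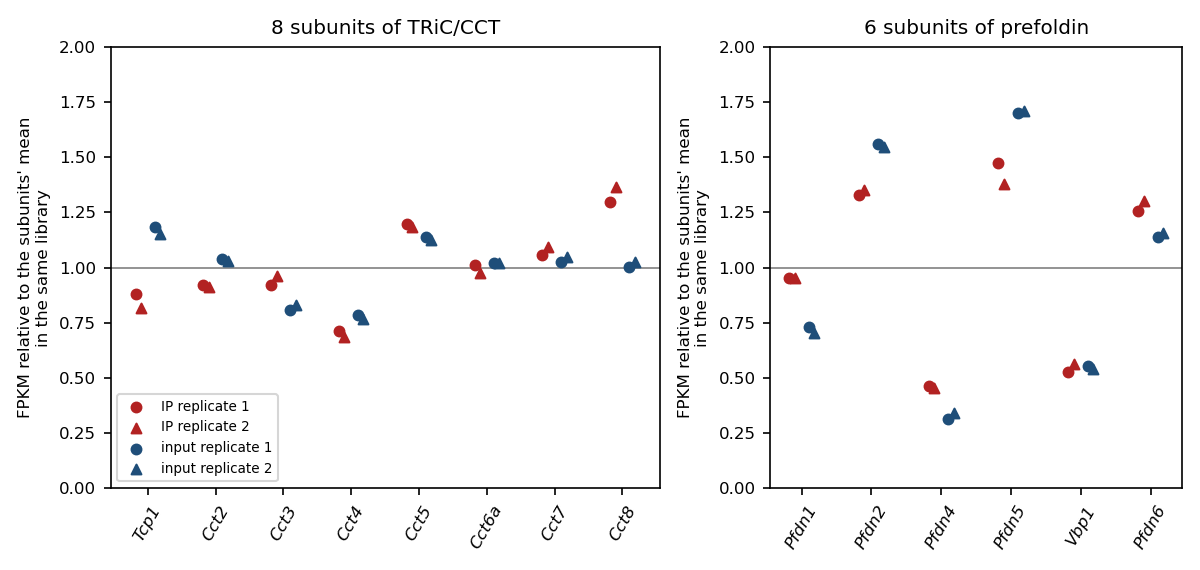
FPKM of each TRiC/CCT subunit (left) and prefoldin subunit (right) relative to the mean of the subunits in the same library, IP libraries in red and input libraries in blue. Tcp1 lies below and Cct8 above its input values in IP, and Pfdn4 and Pfdn1 move up towards the mean while Pfdn5 and Pfdn2 move down.

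Among Hsp90 and its co-chaperones all 7 members rose as deposited (median 0.55). After rescaling 5 were higher and Hsp90ab1 and St13 did not pass, and with quantile normalization 4 were higher and Hsp90ab1 was lower. The shares of all genes called higher were 37.0% as deposited, 17.9% after rescaling and 35.3% with quantile normalization. Hsp90ab1, the constitutive Hsp90 of the cytosol, was the most abundant of all 38 transcripts, at 733.6 and 688.1 FPKM in IP, against 553.2 and 592.9 FPKM in input. The groups did not overlap as deposited (0.31, SE 0.058; limma, adjusted p = 0.0036), while the change was -0.03 after rescaling, where it did not pass, and -0.30 with quantile normalization, past the threshold downward. Hsp90aa1, the heat-inducible paralogue, was at 248.2 and 250.8 FPKM in IP, against 171.8 and 181.8 FPKM in input, a rise of 0.49 (SE 0.049; limma, adjusted p = 0.000249). With quantile normalization the change of Hsp90aa1 was -0.01 and did not pass. The ratio of Hsp90aa1 to Hsp90ab1 was 0.338 and 0.365 in IP, against 0.311 and 0.307 in input, higher in both IP libraries.

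Fkbp4, which encodes the immunophilin FKBP52, a co-chaperone of steroid hormone receptors, had the largest rise of this family. It lies on chromosome 6 from 128430107 to 128438631 and was at 112.5 and 118.4 FPKM in IP, against 53.7 and 57.3 FPKM in input (1.04, SE 0.056; limma, adjusted p = 3.7e-05). Stip1, which encodes Hop, the adaptor between Hsp70 and Hsp90, rose by 0.74. Ahsa1, whose product activates the Hsp90 ATPase, rose by 0.68, and Cdc37, whose product brings kinases to Hsp90, by 0.55. St13, which encodes the Hsp70-interacting protein Hip, was at 71.4 and 66.5 FPKM in IP, against 59.6 and 57.9 FPKM in input. Its groups did not overlap, but the rise of 0.23 (limma, adjusted p = 0.0108) was lost without input replicate 1 or input replicate 2 and after rescaling (-0.11).

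Hspa8 encodes Hsc70, the constitutive Hsp70 of the cytosol, which also uncoats clathrin vesicles. It lies on chromosome 9 from 40801273 to 40805199 and was at 714.9 and 700.6 FPKM in IP, against 435.0 and 472.2 FPKM in input. The IP values lay well above both inputs, and the rise of 0.64 (SE 0.056; limma, adjusted p = 0.000152) also passed after rescaling (0.30) but did not pass with quantile normalization (0.07). Hspa4 and Hsph1 both encode Hsp110-type nucleotide exchange factors of Hsp70, and they differed. Hspa4 was at 81.3 and 75.6 FPKM in IP, against 56.1 and 59.3 FPKM in input, and rose by 0.44, without passing after rescaling (0.10). Hsph1 was at 85.2 and 78.8 FPKM in IP and 78.7 and 81.4 FPKM in input, so that the groups overlapped (0.03, SE 0.057; limma, adjusted p = 0.619). The change of Hsph1 was -0.30 after rescaling and -0.33 with quantile normalization, both past the threshold downward. The difference between Hspa4 and Hsph1 itself was not tested.

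J-domain proteins bring clients to Hsp70 and start its ATPase. As deposited 8 of the 9 genes rose and Dnajb5 fell (median 0.371), whereas after rescaling 0 were higher, Dnajb5 was lower and 8 did not pass. With quantile normalization Dnaja1 was higher and Dnajb5 lower. The shares of all genes called higher were 37.0% as deposited, 17.9% after rescaling and 35.3% with quantile normalization. Dnajc5, which encodes the cysteine string protein of synaptic vesicles, was the most abundant, at 130.2 and 127.4 FPKM in IP, against 95.5 and 97.5 FPKM in input. Both IP values lay above the inputs, with a rise of 0.41 (SE 0.046; limma, adjusted p = 0.000383). Dnaja2, a general class A co-chaperone, had the largest rise of the family, at 99.7 and 98.2 FPKM in IP, against 73.3 and 70.0 FPKM in input (0.46, SE 0.049; limma, adjusted p = 0.000323). Dnaja1 rose by 0.44, although Smu1 overlaps it, with 21.7 and 20.9 FPKM in IP and 18.8 and 19.1 FPKM in input. Dnajb4, Dnajb6, an inhibitor of protein aggregation, and Dnajc7 rose by 0.36, 0.34 and 0.37. Dnajb2, which encodes a neuronal J-domain protein, rose by 0.39, a call lost without input replicate 2. Dnajb1, the canonical Hsp40 gene, was at 39.2 and 40.2 FPKM in IP, against 35.7 and 31.4 FPKM in input, and its rise of 0.24 was lost without input replicate 2, IP replicate 1 or IP replicate 2.

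Dnajb5 went against its family. This gene for a cytosolic partner of Hsc70, on chromosome 4 from 42953094 to 42958732, was at 47.1 and 34.2 FPKM in IP, against 64.1 and 51.2 FPKM in input. Replicate 1 was the higher one in both groups, and the lower input lay only a little above the higher IP value. The fall of -0.50 (SE 0.165; limma, adjusted p = 0.0332) was lost without input replicate 1, input replicate 2 or IP replicate 2. The call was also lost without the filter on low values, with eBayes without its trend and with its robust option.

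The mitochondrial chaperones rose together, 3 of 3 as deposited (median 0.767), after rescaling (median 0.434) and with quantile normalization (median 0.409). The shares of all genes called higher were 37.0%, 17.9% and 35.3% in the same order. Hspa9, the gene of mortalin, the Hsp70 that pulls proteins into the matrix, was at 112.8 and 105.8 FPKM in IP, against 63.5 and 64.1 FPKM in input, a rise of 0.77 (SE 0.052; limma, adjusted p = 6.7e-05). Hspd1, which encodes Hsp60, the chaperonin of the matrix, was at 68.3 and 71.9 FPKM in IP, against 46.4 and 44.9 FPKM in input (0.61, SE 0.053; limma, adjusted p = 0.000151). Hspe1, which encodes Hsp10, the lid of the Hsp60 chamber, was at 75.7 and 92.1 FPKM in IP, against 37.7 and 39.7 FPKM in input (1.09, SE 0.095; limma, adjusted p = 0.000153). In each of these genes the groups lay apart, although the IP libraries of Hspe1 differed more than those of the other two. Hspd1, on chromosome 1 from 55077834 to 55087932, and Hspe1, from 55088148 to 55091317, are read from the interval printed above, yet the ratio of Hspe1 to Hspd1 was 1.109 and 1.281 in IP, against 0.812 and 0.884 in input. Hspe1 was thus the more abundant of the pair in both IP libraries and the less abundant in both input libraries. By symbol, the annotation names 6 pseudogenes or related sequences of Hspe1 and 5 of Hspd1, and 1 each of Tcp1, Cct3, Dnaja1 and Hspa9. Copies under other names were not counted. The sources do not say how the authors' counting divided reads among such copies. Hspe1 is also the shortest member, at 774 nt, against 2423 nt for Hspd1. After the correction for transcript length Hspe1 rose by 0.62 and Hspd1 by 0.50, closer together than as deposited. The part of length in their ratio was not tested.

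Small heat-shock proteins hold unfolded proteins without ATP, and Bag3 links them to Hsp70 and to autophagy. None of the 3 genes rose. Hspb1, on chromosome 5 from 135887919 to 135889563, encodes Hsp27 and was at 0.295 and 0.0707 FPKM in IP, against 2.68 and 2.78 FPKM in input. The authors' confidence limits were 0.0311 to 0.558 and 0.0 to 0.212 FPKM in IP, against 1.83 to 3.54 and 1.93 to 3.64 FPKM in input, and did not overlap between the groups. If those limits span 2 SD of a count, they correspond to 6 reads in the IP libraries together and 82 in the input libraries, so that input exceeded IP 14.9 times, with an exact 95% interval of 6.58 to 41.9 that covers counting error only. On the log2(FPKM + 1) scale, which understates changes of so low a gene, the change was -1.665 (SE 0.119; limma, adjusted p = 7.9e-05). It was -2.716 after rescaling and -1.141 with quantile normalization. Markers of several other cell types fell along with it. By summed levels, input exceeded IP 14.5 times for microglial, 14.0 times for erythrocyte and 12.5 times for ependymal and choroid plexus markers. The ependymal and choroid plexus sums differed widely between the input libraries, at 181.9 and 15.1 FPKM. For mural, oligodendrocyte, endothelial and astrocyte markers input exceeded IP 6.47, 4.37, 4.32 and 3.07 times. The 5 mural markers summed to 4.04 and 5.17 FPKM in IP, against 28.8 and 30.8 FPKM in input, and all 5 fell. The 5 endothelial markers summed to 1.16 and 1.48 FPKM in IP, against 6.39 and 4.99 FPKM in input, with 2 of 2 tested falling, and none was at 0. The part of these cells in the Hspb1 result was not tested.

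The other 2 genes of the group did not pass as deposited. Hspb8, whose product works with Bag3, was at 6.86 and 8.39 FPKM in IP and 7.60 and 7.90 FPKM in input (-0.03; limma, adjusted p = 0.822), and was called lower after rescaling (-0.35). Bag3 was at 3.38 and 2.42 FPKM in IP and 2.66 and 3.13 FPKM in input (-0.01; limma, adjusted p = 0.963). In both genes the IP values lay on either side of the inputs. The half-width of the confidence limits reached up to 200.0% of the value for these 3 low genes, and 0.99% to 12.4% for the other 35 members.

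Change went with transcript length across all genes, and the members are short. When the genes tested were split by length into 4 classes of like size, the median change was 0.35 in the shortest class, 0.127 and -0.04 in the middle classes and -0.29 in the longest. The members had a median length of 2443.5 nt, against 3189.0 nt for all genes with a length. Of the members 11 lay in the shortest class (median change 0.57), 19 in the next (0.388), 5 in the third (0.226) and 3 in the longest (0.438). The 3 in the longest class were Cdc37, Dnajc5 and Dnaja1, at 7851, 6578 and 5622 nt. They rose as deposited although the median gene of that class was lower in IP. Each length is that of the gene's longest annotated transcript, which need not be the one behind its FPKM. If the confidence limits span 2 SD of a count, Cdc37 had 5175 reads at 94.1 FPKM in IP replicate 1. Cct2, of 1959 nt, had 4057.2 reads at 94.8 FPKM there, so Cdc37 may belong in a shorter class. After a correction for length 31 members were higher and 2 lower, against a background of 35.7% higher and 30.1% lower, and the members' median was 0.358. Across the 38 genes, which are no independent replicates and share the same 4 libraries, Spearman's rho of change with length was -0.293.

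**Figure D4:**
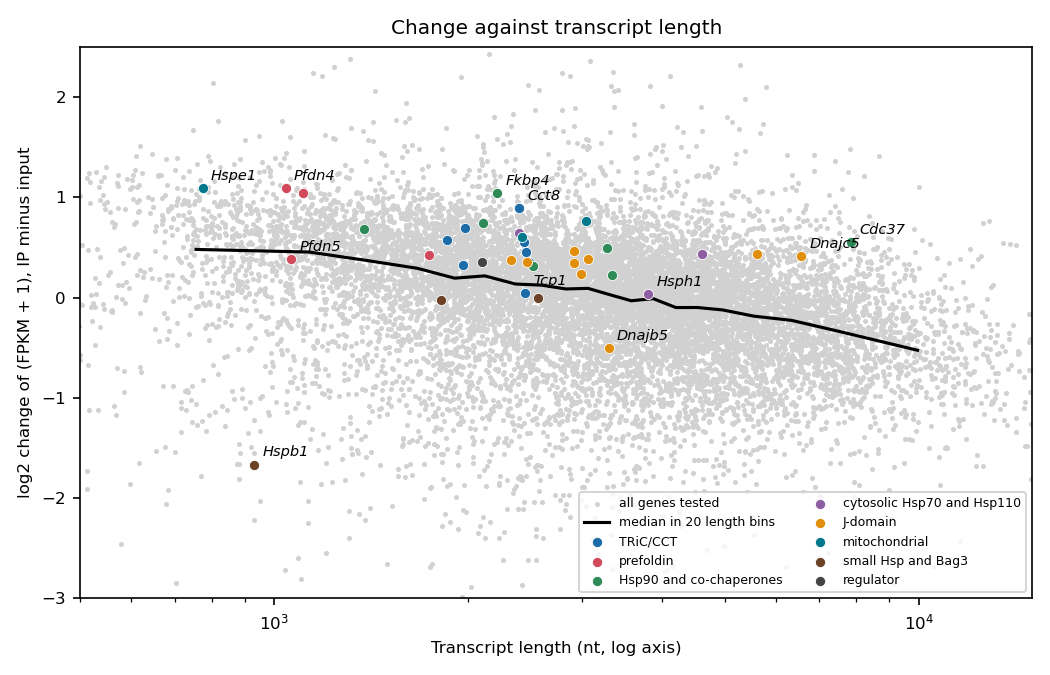
Log2 change of (FPKM + 1), IP minus input, against transcript length in nt on a log axis, for all genes tested (grey), their median in 20 length bins (line) and the chaperone genes by family (colours). The line falls with length, most chaperone genes lie above it, and Dnajb5 and Hspb1 lie furthest below it.

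Beyond the 38 genes, 91 further chaperone and co-chaperone genes were listed by family, of which 78 passed the filter. Of these 47 rose, 7 fell and 24 did not pass, with a median of 0.329. Of all genes tested 37.0% were called higher and 33.9% lower. After rescaling 25 of the 78 were higher and 24 lower, against 17.9% and 53.8% of all genes. The median of this wider group lay 0.304 above that of all genes as deposited, 0.311 above it after rescaling and 0.148 above it with quantile normalization. The largest rise was that of Dnajc12, a J-domain co-chaperone of the aromatic amino acid hydroxylases, at 26.1 and 31.9 FPKM in IP, against 12.5 and 11.0 FPKM in input (1.23). Dnajc15, which encodes a J-domain protein of the mitochondrial inner membrane, was at 92.5 and 87.4 FPKM in IP, against 41.2 and 42.6 FPKM in input (1.08). Hspbp1, whose product is a nucleotide exchange factor of Hsp70, was at 147.4 and 143.5 FPKM in IP, against 67.8 and 69.6 FPKM in input (1.07). All 3 stayed higher after rescaling, at 0.94, 0.76 and 0.74.

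Dnajc1 and Hspa2 were among the largest falls of these further genes. Dnajc1, which encodes a J-domain protein of the endoplasmic reticulum membrane, was at 0.789 and 0.589 FPKM in IP, against 3.83 and 2.14 FPKM in input (-1.21). Hspa2, an Hsp70 gene known from spermatocytes, was at 9.43 and 8.57 FPKM in IP, against 20.6 and 20.6 FPKM in input (-1.11). Hspa2 thus fell while its paralogue Hspa8 rose, and the difference between them was not tested. Among the mitochondrial co-chaperones 8 of 11 tested rose and 0 fell, and among the Hsp90 co-chaperones 9 of 13 rose and 0 fell. Of the J-domain genes 12 of 24 rose and 4 fell. Beside these as-deposited counts stand 37.0% higher and 33.9% lower among all genes. After rescaling the mitochondrial counts were 4 higher and 1 lower, the Hsp90 counts 5 higher and 4 lower, and the J-domain counts 8 higher and 10 lower, beside 17.9% higher and 53.8% lower among all genes.

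**Figure D5:**
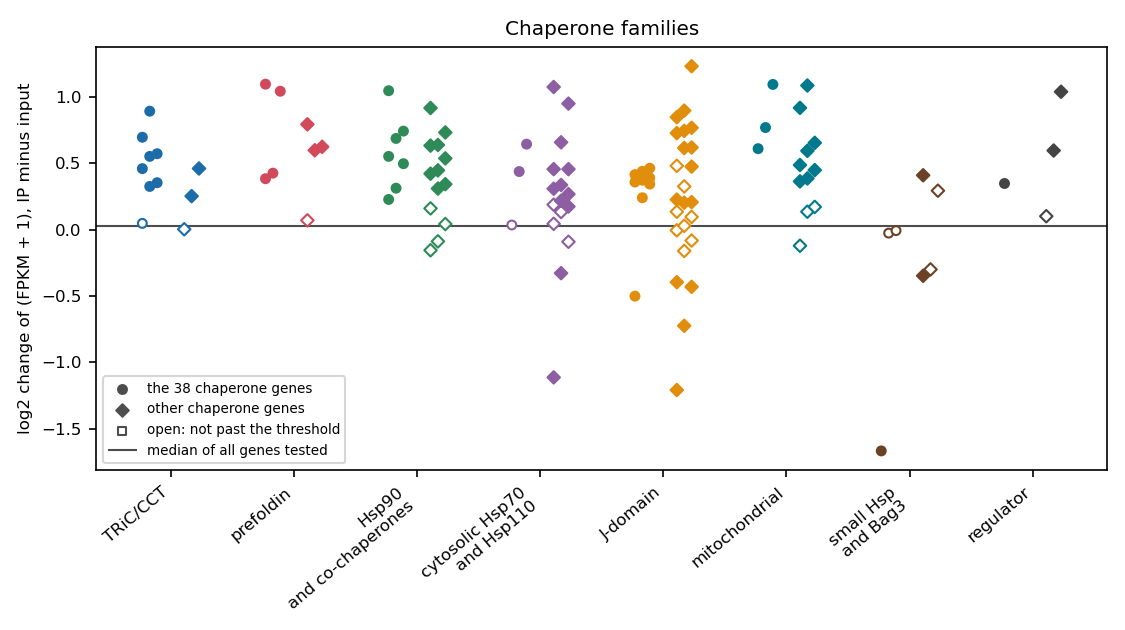
Log2 change of (FPKM + 1), IP minus input, for the 38 chaperone genes (circles) and the other chaperone genes tested (diamonds) by family, open symbols not past the threshold and the line at the median of all genes tested, 0.025. The J-domain family spreads over both directions, with Dnajc12 at 1.23 and Dnajc1 at -1.21, while no mitochondrial gene was called lower as deposited (1 was after rescaling).

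Of the further genes, 13 lay below the filter and 7 were listed at 0 in at least one library. Uxt, Dnajc19, Dnajb8 and Hspb2 were listed at 0 in all 4 libraries. Dnajb7 had a listed value of 0 in each IP library, against 0.143 and 0.0918 FPKM in input. Itgb1bp2 was listed at 0 in IP replicate 1, and Dnajc22 at 0 in IP replicate 1 and input replicate 2. A value of 0 in such files can be a failed estimate. Of the other regulators, Hsf4, a heat-shock factor known from the lens, was at 21.7 and 22.5 FPKM in IP, against 9.83 and 10.7 FPKM in input, and rose by 1.04. Hsbp1, whose product binds heat-shock factor, rose by 0.59, and Hsf2 did not pass (0.10).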

How the data were processed

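The values are FPKM per gene, deposited by the authors for each library as Cufflinks tables that also hold a status and confidence limits, per the file headers. Reads were 100 bp, single-end, aligned with TopHat at default settings. The build was mm10 and the annotation that of UCSC from iGenomes, as the series' design text and the submitters' processing notes state. Tool versions and any strand-specific counting are not given in the sources used here, and the authors' Cuffdiff test was not used. The labels' protocols name a TruSeq RNA kit.

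Groups and replicate numbers came from the sample titles. The source description of IP replicate 2 gives replicate 1; the title was used. Every IP had its own input from the same pool per the design text, so the numbers pair the samples. The deviations of IP replicate 1 and input replicate 1 from their group means correlated at 0.161 across genes. Replicates shared no identical value among genes at an FPKM of 5 or more.

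Each library listed 24490 entries for 23991 symbols. The 8 entries with a failed status and 1272 small RNA entries were left out, and the entry with the highest mean was kept for each symbol. Genes that reached an FPKM of 1 in 2 or more libraries entered a two-sided limma test (lmFit, then eBayes with trend; limma 3.58.1, R 4.3.3) of log2(FPKM + 1), without a block. Adjustment was by Benjamini-Hochberg over all 12418 genes, and the threshold was 0.05. No count test was run because FPKM are not counts. The p-values rest on the spread between 2 pools a group, which eBayes moderates towards that of genes of like level. They are therefore no measure of each gene's own spread, and the main test does not use the pairing. The depth of a library is unknown. The test was run on simulated data with independent normal noise and known changes. That simulation held no shift of library scale, length trend or pairing, so it cannot check the calls against these. Transcript lengths were those of the longest GENCODE transcript of each symbol, protein-coding where there was one, and matched 99.3% of the genes tested. The length correction subtracted a lowess curve of change on length with a span of 0.3. Overlapping genes were found by the files' coordinates (mm10, 1-based). Apart from Usp16 and Smu1, the genes that overlap Tcp1, Cct7, Pfdn4, Dnaja1 and Dnajb6 were listed at 0 in each library. Software for the tables and plots was Python 3.11.15, numpy 2.4.6, pandas 2.3.3 and matplotlib 3.10.9.

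The 38 genes and all gene lists were chosen with earlier results of these data known. All 38 are named. Values in each library are given for each family's most abundant gene, its largest rise and fall, and genes that went against their family or lay near the filter. Of the further chaperone genes the 3 largest rises and falls and those listed at 0 are named, except 1 gene that is not reported here, and any other gene was picked with its values in view. The alternatives tried were pseudocounts of 0.1 and 5, no filter and a filter at 5, a replicate block, rescaling, quantile normalization, median-of-ratios size factors, summed entries per symbol, eBayes without the trend or with the robust option, the length correction, and each library left out in turn.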

Additional observations from a re-analysis of the deposited data

How the results depend on the processing

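The 32 higher and 2 lower members were the same with pseudocounts of 0.1 and 5, median-of-ratios size factors and summed entries. The replicate block, which uses the pairing of each IP with its input, gave 32 and 2 as well and changed no member's call, with an adjusted p of 0.000124 for Dnajb5 (limma). Rescaling left 16 higher and 5 lower, and quantile normalization 15 and 5. Without the filter Dnajb1 and Dnajb5 lost their calls, and Dnajb5 also did without the trend and with the robust option. The lower count was 1 without the filter, with the filter at 5 (where Hspb1 was not tested), without the trend and with the robust option, and 1 to 2 with one library left out. The higher count was 29 to 31 with one library left out. The members' median of 0.43 was 0.094 after rescaling, 0.487 with median-of-ratios size factors, 0.09 with quantile normalization and 0.358 after the length correction. Tcp1 was at -0.29 after rescaling and -0.31 with quantile normalization, Hsph1 at -0.30 and -0.33, and Hsp90ab1 at -0.30 with quantile normalization. After rescaling 25 other chaperone genes were higher and 24 lower, and 5 heat-inducible genes higher and 4 lower. The heat-inducible lower count was 1 with the filter at 5. The cause of these shifts was not tested. No spike-in or read total was used that would fix the scale. Changes within about the shift of the all-gene median (0.025 as deposited, -0.293 after rescaling) therefore have no settled direction. For some abundant members the span was wider. From the deposited values to quantile normalization Hsp90ab1 went from 0.311 to -0.303 and Hspa8 from 0.642 to 0.073. Hsp90aa1, Pfdn2 and Pfdn5, at 0.495, 0.424 and 0.382 as deposited, were at -0.007, -0.017 and -0.071, so their direction is not settled either. Precision is limited by 2 pools per group and, for Hspb1, by few reads.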
